A study of Mus musculus with 4 samples.

Results

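The replication-dependent histone genes are the genes of the mouse Hist1 to Hist4 clusters, and they were taken as every row of the deposited expression table whose gene symbol begins with Hist1h, Hist2h, Hist3h or Hist4h. This gave 71 of 46517 rows and 70 symbols, because Hist2h2bb is listed under 2 gene IDs, 1 of them a long intergenic RNA model. In the GENCODE M21 annotation 2 other rows are processed pseudogenes and 1 is an unprocessed pseudogene. By class, 6 rows were H1 (linker histone) genes, 20 were H2A, 20 were H2B, 12 were H3 and 13 were H4 genes. By cluster, 56 rows belonged to Hist1, 11 to Hist2, 3 to Hist3 and 1 to Hist4. Messenger RNA had been sequenced from LSK cells, the bone marrow fraction sorted as negative for lineage markers and positive for Sca-1 and c-Kit, which is enriched for blood stem cells and early progenitors. There were 2 libraries from Setd2D/D mice, the Setd2 knockout, and 2 libraries from Setd2f/f mice, which have the floxed allele and count as wild type in the labels. All animals were C57BL/6 and 8 to 10 weeks old. Setd2 encodes the methyltransferase that trimethylates lysine 36 of histone H3 in transcribed genes. The sources used here do not give the Cre driver, the exons removed, the number of mice per library, the RNA selection step or the strand setting. Nothing states that replicates came from separate mice, so a p-value measures only how much these libraries vary, part of which may be technical.

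Replication-dependent histone genes supply the core and linker histones that package newly made DNA, and their mRNAs accumulate in S phase. These mRNAs usually end in a short conserved stem-loop instead of a poly(A) tail. SLBP binds that stem-loop, and the U7 snRNP with the CPSF cleavage factors cuts just after it, while NPAT drives transcription of the clusters. Some cluster genes also make polyadenylated transcripts that run past the stem-loop, and libraries selected on poly(A) see mainly those. Replication-independent genes such as H3f3a, H3f3b and H2afz encode the variants that are laid down outside S phase and have ordinary poly(A) tails.

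The stem-loop itself was read from the GENCODE M21 transcript models on GRCm38, because it is the feature that sets these mRNAs apart. It was searched for on the sense strand as a 16-base pattern: GG, any 2 bases, CTT, any base, T, any base, AG, any 2 bases and CC. Of the 69 members whose ID matched M21, 21 models ended within 60 bases of the stem-loop, 23 ran further past it and 25 held none. The pattern was present in 0.278% of 58727 other protein-coding transcripts. A model without it says only that these letters are not in the annotated transcript. The 6 windows printed here span the classes and the genes described later, each with 30 bases of the sense strand and the 16 bases of the pattern in capitals. They lie at chr13:22036295-22036324 on the plus strand (Hist1h2bk), chr13:23757361-23757390 on the plus strand (Hist1h4b), chr13:23761881-23761910 on the minus strand (Hist1h3a), chr3:96239775-96239804 on the minus strand (Hist2h2aa2), chr13:23739507-23739536 on the plus strand (Hist1h1c) and chr13:22040957-22040986 on the minus strand (Hist1h4i).
Hist1h2bk: ccaaaGGCTCTTTTAAGAGCCactaaacca
Hist1h4b: caaaaGGTCCTTTTCAGGACCactcactga
Hist1h3a: ccaaaGGCTCTTTTCAGAGCCacacacgat
Hist2h2aa2: aaaaaGGCTCTTTTCAGAGCCacccactga
Hist1h1c: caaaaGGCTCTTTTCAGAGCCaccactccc
Hist1h4i: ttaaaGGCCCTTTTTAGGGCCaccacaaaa
Hist1h3a, Hist2h2aa2 and Hist1h1c carry the same 16 bases, and the other 3 windows differ from them inside the stem or the loop. The Hist1h2bk, Hist1h4b, Hist1h3a and Hist2h2aa2 models stop 28 to 37 bases after the stem-loop. The Hist1h4i model runs 330 bases past it and the Hist1h1c model 840 bases past it.

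The genotype label was checked on Setd2 itself, which had 43.4 and 49.5 TPM (a read share corrected for transcript length) in Setd2D/D libraries, against 78.9 and 68.0 TPM in Setd2f/f libraries. The log2 change was -0.65 with a standard error of 0.15 (limma, Benjamini-Hochberg adjusted p = 0.329). The authors' deposited table (edgeR) gave a log2 fold change of -0.73 and an FDR of 5.84e-06. Both Setd2D/D values lay below both Setd2f/f values. The LSK markers Kit and Ly6a (Sca-1) were present in every library. Kit had 301 and 285 TPM in Setd2D/D libraries and 224 and 249 TPM in Setd2f/f libraries, and Ly6a had 46.5 and 80.6 TPM in Setd2D/D libraries against 128 and 124 TPM in Setd2f/f libraries. All 9 listed LSK markers together summed to 1523 and 1413 TPM in Setd2D/D libraries against 1914 and 1806 TPM in Setd2f/f libraries. Markers of other blood cells also differed with genotype. The summed level of 12 erythroid markers was 1117 and 980 TPM in Setd2D/D libraries against 573 and 437 TPM in Setd2f/f libraries, that of 8 B lineage markers 179 and 249 TPM in Setd2D/D libraries against 513 and 282 TPM in Setd2f/f libraries, that of 10 granulocyte-monocyte markers 2709 and 3776 TPM in Setd2D/D libraries against 1879 and 2376 TPM in Setd2f/f libraries, and that of 6 T and NK markers 79.9 and 119 TPM in Setd2D/D libraries against 131.2 and 131.4 TPM in Setd2f/f libraries. No marker of the erythroid and B lineage lists was at 0 in any library. At an FDR under 0.05, the authors' deposited table calls 9 of the 12 erythroid markers higher, against 1.51% of its 23955 genes. It calls 6 of the 8 B lineage markers lower, against 1.64% of its genes. Of the 9 LSK markers it calls 2 lower (Ly6a and Cd34) and 0 higher. In the granulocyte-monocyte list it calls 3 higher (Mpo, Elane and Ctsg, which hold much of the sum) and 2 lower (Ltf and Ngp), and Ly6g was at 0 in Setd2D/D replicate 1. Of the T and NK markers, Cd3e, Cd3d, Cd4 and Cd8a were each at 0 in at least 1 library. In bulk RNA, fewer cells of a type and less RNA per cell cannot be told apart. Depth was read from the lowest values of genes with a single transcript model, where 1 read was worth about 0.0615 and 0.0437 TPM over 1000 bases in the Setd2D/D libraries and 0.0452 and 0.0370 TPM in the Setd2f/f libraries. Setd2D/D replicate 1 was therefore the shallowest, with 0.601 times the depth that Setd2f/f replicate 2 had.

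Together the histone cluster genes made up a very small share of the measured transcripts. Their levels summed to 151 and 166 TPM in Setd2D/D libraries, against 187 and 247 TPM in Setd2f/f libraries, or 0.0151% and 0.0166% of all TPM in Setd2D/D libraries against 0.0187% and 0.0247% in Setd2f/f libraries. Both Setd2D/D sums lay below both Setd2f/f sums, and the ratio of the means was 0.731 (158 ± 10.8 TPM in Setd2D/D against 217 ± 42.5 TPM in Setd2f/f, SD, n = 2 each). A sum over members carries no p here, since 2 libraries against 2 cannot reach an exact permutation p below 0.33. The erythroid and B lineage marker sums given above moved with genotype as well, and their part in the histone sums was not tested.

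By class, the H3, H2B and H2A genes had the lower sums in Setd2D/D libraries, and the H1 and H4 sums overlapped. H3 genes, which encode the histone that Setd2 methylates, summed to 13.6 and 13.5 TPM in Setd2D/D libraries against 21.3 and 28.1 TPM in Setd2f/f libraries, a ratio of 0.548. H2B genes summed to 55.5 and 57.9 TPM in Setd2D/D libraries against 78.1 and 89.3 TPM in Setd2f/f libraries, a ratio of 0.677. For these classes the Setd2D/D libraries lay close together and under both Setd2f/f libraries. All 12 H3 genes had a mean CPM under 1 in the authors' deposited table, which called 0 of them. CPM is a read share not corrected for transcript length. Hist1h3i had 5.89 TPM in Setd2f/f replicate 1 and was at 0 in the other libraries. The H3 log2 ratio of -0.87 was -0.95 without Hist1h3h, the highest H3 gene, and -0.47 with TPM weighted by model length. Leaving out other H3 genes was not tested. H2A genes summed to 33.1 and 34.0 TPM in Setd2D/D libraries against 36.8 and 55.7 TPM in Setd2f/f libraries, a ratio of 0.725, and this difference rested on 1 gene: without Hist1h2ah the log2 ratio of the H2A sums was 0.15, in the opposite direction. H4 genes summed to 30.7 and 42.8 TPM in Setd2D/D libraries against 36.1 and 53.1 TPM in Setd2f/f libraries, with a log2 ratio of -0.28 that was 0.02 without Setd2f/f replicate 2 and -0.62 without Hist1h4i. H1 genes summed to 18.0 TPM in each Setd2D/D library against 14.4 and 20.6 TPM in the Setd2f/f libraries. H1 therefore took a larger share of the histone cluster total in Setd2D/D libraries, at 11.96% and 10.8% against 7.70% and 8.33% in Setd2f/f libraries. H3 took a smaller one, at 8.99% and 8.11% in Setd2D/D libraries against 11.40% and 11.39% in Setd2f/f libraries. The plot of summed TPM by class shows these 5 comparisons.

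**Figure D1:**
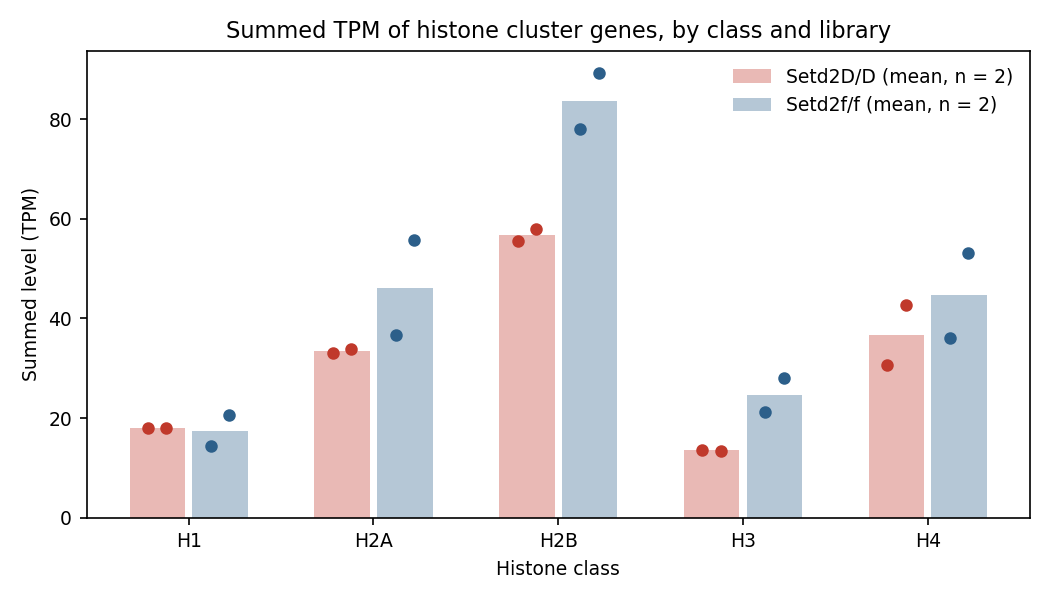
Summed TPM of the H1, H2A, H2B, H3 and H4 genes (y axis) by class (x axis), with Setd2D/D on the left and Setd2f/f on the right of each pair; points are libraries and bars are means (n = 2). For H2A, H2B and H3 both Setd2D/D points lie below both Setd2f/f points, while for H1 and H4 the genotypes overlap.

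Levels of single genes were low and uneven. Of the 71 members, 9 were listed at 0 in all 4 libraries, 19 were above 0 in all 4, and 11 reached 1 TPM in all 4. Only 10 members passed 10 TPM in any library, and the 5 highest members held 23.0% and 34.5% of the summed level in Setd2D/D libraries and 35.4% and 34.0% in Setd2f/f libraries. The heatmap of levels shows many genes with a high value in 1 library and 0 in its replicate.

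**Figure D2:**
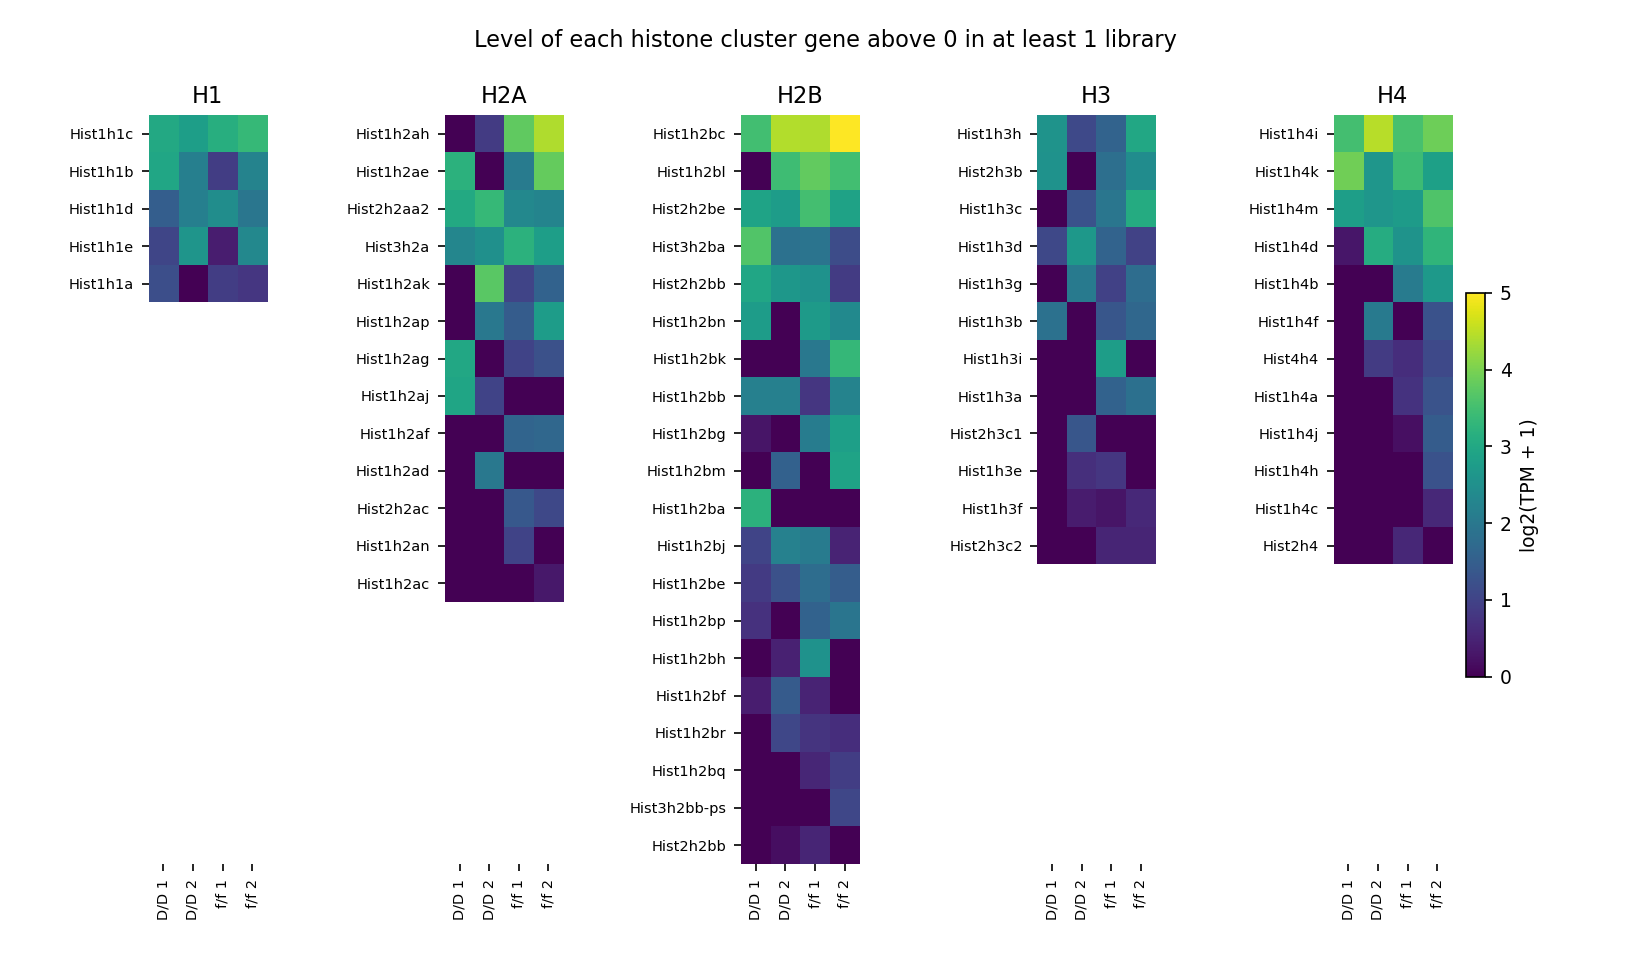
Level of each of the 62 histone cluster genes above 0 in a library as log2(TPM + 1) (colour), by class, ordered by mean level from the top, in Setd2D/D replicates 1 and 2 (left columns) and Setd2f/f replicates 1 and 2 (right columns). Dark cells are values at or near 0 and are more frequent in the Setd2D/D columns; the highest cell is Hist1h2bc in Setd2f/f replicate 2, at 33.5 TPM.

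More histone cluster genes were listed at 0 in Setd2D/D libraries. Among the 62 members above 0 in at least 1 library, 51.6% and 40.3% were at 0 in the Setd2D/D libraries against 16.1% and 17.7% in the Setd2f/f libraries. The same shares over all 23893 genes above 0 somewhere were 28.1% and 18.6% in Setd2D/D libraries and 16.7% and 15.5% in Setd2f/f libraries, so that zeros were more frequent in the Setd2D/D libraries for all genes too. Of 45 members above 0 in both Setd2f/f libraries, 9 were at 0 in both Setd2D/D libraries, which is 20% against a background of 4.41% of all such genes. In the other direction, 1 of 21 members above 0 in both Setd2D/D libraries was at 0 in both Setd2f/f libraries, or 4.76% against 1.38%. That member is Hist1h2aj, an unprocessed pseudogene in GENCODE M21, and it was named after its values were seen. All-gene shares include strongly expressed genes that are seldom at 0, and the part of low level and of depth in the difference was not tested.

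**Figure D3:**
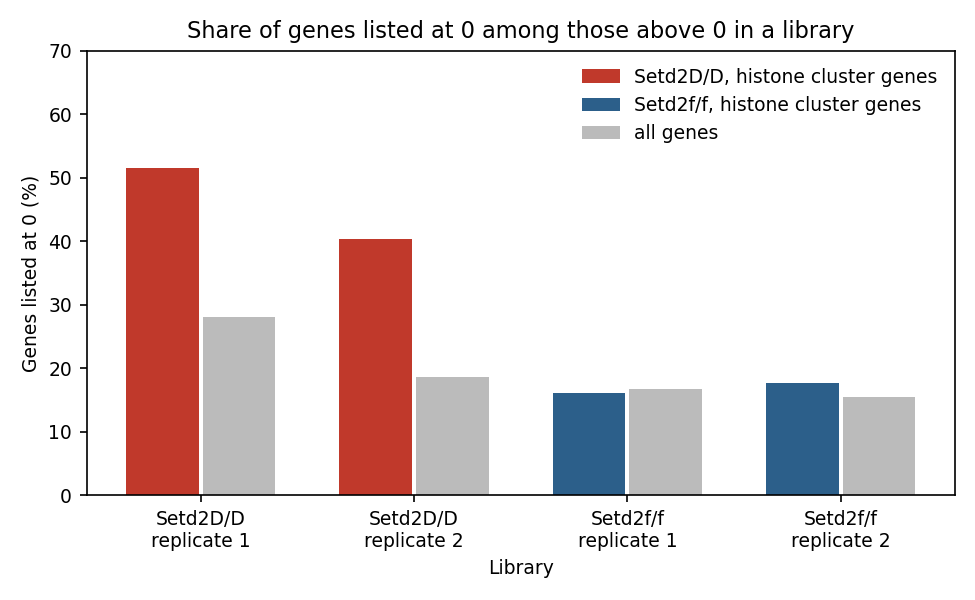
Percent of genes listed at 0 (y axis) in each library (x axis, Setd2D/D left), for the 62 histone cluster genes (coloured bars) and for all 23893 genes (grey bars) above 0 in at least 1 library. The coloured bars stand at 51.6% and 40.3% in Setd2D/D libraries against 16.1% and 17.7% in Setd2f/f libraries.

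Swings between replicates were large. A member was at 0 in 1 library and at 1 TPM or more in its replicate for 17 of the 62 genes (27.4%) in Setd2D/D and for 7 (11.3%) in Setd2f/f, against 6.51% of all genes in Setd2D/D and 3.36% in Setd2f/f. Whether single reads set these swings was not tested. Read equivalents were taken over all members above 0 with an M21 model, not over those that swung. By the worth of a read given above, the median member above 0 corresponded to about 31.2 and 35.5 reads in the Setd2D/D libraries and 22.8 and 40.6 reads in the Setd2f/f libraries, and 1 to 3 members per library lay under 5 reads. Reads without molecular identifiers are not independent molecules, so these equivalents bound counting error only.

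No histone cluster gene passed the test over all genes. In the limma fit on log2(TPM + 1), with genes kept at 1 TPM or more in at least 2 libraries, 0 of the 40 members tested passed an adjusted p of 0.05, against 10 of 14755 genes (0.0678%), of which 7 were lower (0.0474%) and 3 higher (0.0203%). At an unadjusted p under 0.05, 9 of the 40 members were lower in Setd2D/D (22.5%, against 6.99% of all genes tested) and 2 were higher (5%, against 4.17%). Of these 9, 8 were under 1 TPM in both Setd2D/D libraries and entered the test only through their Setd2f/f values, so the filter helps set this count and nothing is read from its distance to the all-gene share. These counts moved with single libraries: without Setd2f/f replicate 2 they were 0 and 0, without Setd2f/f replicate 1 they were 1 and 1, and without Setd2D/D replicate 1 the count of higher members was 4. The authors' deposited table, which comes from edgeR, lists 62 members, of which 2 were lower in Setd2D/D at an FDR under 0.05 (3.23%, against 1.64% of its 23955 genes) and 0 were higher (against 1.51%). Over the 62 members above 0 in a library, both Setd2D/D libraries lay below both Setd2f/f libraries for 17 (27.4%, against 22% of all such genes) and above them for 3 (4.84%, against 13.4%). The median log2 change of the members tested was -0.53, beside -0.06 over all genes tested, and -0.42 without the 6 members at 0 in both libraries of a genotype. With all tested members it was -0.23 without Setd2f/f replicate 2. The median describes only the members that passed the filter. Members that passed it only through their Setd2f/f values, such as Hist1h2ah, stay in both the -0.53 and the -0.42. Nothing is read from the distance of these medians to the all-gene median. Members also had wider errors, with a median standard error of 0.61 on the log2 scale beside 0.24 for all genes tested.

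Among the H2A genes, which encode a core histone that pairs with H2B, the widest difference was in Hist1h2ah. Hist1h2ah had 0 and 0.83 TPM in Setd2D/D libraries, against 12.7 and 20.2 TPM in Setd2f/f libraries. The groups were far apart, with a log2 change of -3.65 and a standard error of 0.46, but the adjusted p was 0.148 in limma. The authors' deposited table gave a log2 fold change of -5.12 and an FDR of 0.0162. A predicted gene lies antisense to Hist1h2ah, as one does to Hist1h2ae, Hist1h2af, Hist2h2aa2 and Hist3h2a. The 405-base Hist1h2ah model shares 90.7% of its 50-base windows with other histone genes, so reads could have been divided among copies. Without Setd2D/D replicate 2 its adjusted p was 0.0433. Hist1h2ae had 8.33 and 0 TPM in Setd2D/D libraries against 3.25 and 13.0 TPM in Setd2f/f libraries, a spread that covers both genotypes. Hist1h2af was listed at 0 in both Setd2D/D libraries, against 2.07 and 2.20 TPM in Setd2f/f libraries (limma adjusted p = 0.346).

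Hist2h2aa2, an H2A gene of the Hist2 cluster on chromosome 3, went the other way. It had 7.18 and 9.19 TPM in Setd2D/D libraries, against 4.06 and 3.77 TPM in Setd2f/f libraries. Both Setd2D/D values were higher, with a log2 change of 0.89, a standard error of 0.29 and a limma adjusted p of 0.411. All of its windows (100%) occur in other members, so its level cannot be told apart from that of its copies. Hist3h2a had 3.91 and 4.68 TPM in Setd2D/D libraries against 8.28 and 5.99 TPM in Setd2f/f libraries, both lower, with a log2 change of -0.61 and a limma adjusted p of 0.520. Its model is 2146 bases long, runs 1643 bases past the stem-loop and shares only 2% of its windows with other members.

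Among the H2B genes, Hist1h2bc had the highest mean of all members. Hist1h2bc had 10.2 and 20.4 TPM in Setd2D/D libraries, against 20.04 and 33.5 TPM in Setd2f/f libraries, and the highest Setd2D/D value just passed the lowest Setd2f/f value. Its log2 change was -0.80 with a standard error of 0.41 (limma adjusted p = 0.534). Hist1h2bl had 0 and 9.98 TPM in Setd2D/D libraries against 12.9 and 10.2 TPM in Setd2f/f libraries, so that 1 Setd2D/D library held nearly the Setd2f/f level and the other none. Its adjusted p was 0.575 in limma with all libraries and 0.0424 without Setd2D/D replicate 2, which is the library that held the gene. Hist1h2bk was listed at 0 in both Setd2D/D libraries, against 3.01 and 9.08 TPM in Setd2f/f libraries. The limma adjusted p of Hist1h2bk was 0.301, and the authors' deposited table gave an FDR of 0.0488. Hist1h2bg had 0.21 and 0 TPM in Setd2D/D libraries against 3.27 and 6.06 TPM in Setd2f/f libraries, a log2 change of -2.32 with a standard error of 0.45 (limma adjusted p = 0.277).

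Hist2h2be, the H2B gene with no window shared with any other member, had 6.47 and 5.81 TPM in Setd2D/D libraries against 10.3 and 6.38 TPM in Setd2f/f libraries. The lower Setd2f/f value was within 0.1 TPM of the higher Setd2D/D value, and the log2 change was -0.36 with a standard error of 0.32 (limma adjusted p = 0.704). Hist3h2ba had 11.4 and 2.66 TPM in Setd2D/D libraries against 2.78 and 1.25 TPM in Setd2f/f libraries. The higher of the 2 Hist2h2bb rows had 6.74 and 5.24 TPM in Setd2D/D libraries against 4.86 and 0.82 TPM in Setd2f/f libraries. Hist3h2ba overlapped between genotypes and this Hist2h2bb row did not, and their limma adjusted p-values were 0.558 and 0.562.

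The H3 genes encode the substrate of Setd2, and the clustered H3 genes had the lowest sums of the 4 core classes. Hist1h3a was listed at 0 in both Setd2D/D libraries, against 1.98 and 2.59 TPM in Setd2f/f libraries (limma adjusted p = 0.339). Hist1h3c had 0 and 1.40 TPM in Setd2D/D libraries against 2.90 and 7.48 TPM in Setd2f/f libraries, a log2 change of -1.89 with a standard error of 0.65 (limma adjusted p = 0.423). Both genes were lower in each Setd2D/D library. The 2 other Hist1 genes of the class with the highest means overlapped between genotypes. Hist1h3h had 4.95 and 1.15 TPM in Setd2D/D libraries against 2.02 and 7.04 TPM in Setd2f/f libraries, and Hist1h3d had 1.12 and 5.37 TPM in Setd2D/D libraries against 2.03 and 0.99 TPM in Setd2f/f libraries. Hist2h3b, at 4.87 and 0 TPM in Setd2D/D libraries and 2.57 and 4.43 TPM in Setd2f/f libraries, was also mixed.

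Among the H4 genes, the highest members did not separate the genotypes. Hist1h4i had 10.4 and 20.9 TPM in Setd2D/D libraries, against 10.7 and 13.9 TPM in Setd2f/f libraries. Hist1h4k had 14.1 and 5.14 TPM in Setd2D/D libraries against 9.69 and 6.18 TPM in Setd2f/f libraries, and Hist1h4m had 5.99 and 5.14 TPM in Setd2D/D libraries against 5.69 and 11.3 TPM in Setd2f/f libraries. In all of these the Setd2D/D and Setd2f/f ranges overlapped. Hist1h4d, at 0.23 and 7.55 TPM in Setd2D/D libraries and 4.97 and 8.64 TPM in Setd2f/f libraries, shows how far replicates could part. Hist1h4b was listed at 0 in both Setd2D/D libraries, against 3.23 and 5.51 TPM in Setd2f/f libraries (limma adjusted p = 0.256).

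The linker histone H1 genes had the summed level closest between genotypes. Hist1h1c, an abundant somatic H1, had 7.14 and 5.94 TPM in Setd2D/D libraries, against 7.79 and 9.21 TPM in Setd2f/f libraries. Both values were lower, by a log2 change of -0.33 with a standard error of 0.26 (limma adjusted p = 0.666). Hist1h1b had 6.73 and 3.49 TPM in Setd2D/D libraries against 0.88 and 3.69 TPM in Setd2f/f libraries, with overlap. Hist1h1d, at 1.80 and 3.46 TPM in Setd2D/D libraries and 4.50 and 2.88 TPM in Setd2f/f libraries, and Hist1h1e, at 1.07 and 5.11 TPM in Setd2D/D libraries against 0.32 and 4.04 TPM in Setd2f/f libraries, overlapped as well. The median share of windows found in other members was 1.1% for H1 models, against 73.3% for H2A, 50.5% for H2B, 57.3% for H3 and 39.5% for H4 models, although single core genes such as Hist2h2be share none.

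Hist1h2ah and Hist1h2bk, the genes called in the authors' deposited table, are neighbours. They start 301 bases apart on opposite strands of chromosome 13, with the interval between them upstream of both. The RefSeq promoter of Hist1h2bk on GRCm38.p6 is printed because it spans almost all of that interval, at chr13:22035571-22035870 on the plus strand. Capitals mark 3 motifs searched on both strands. These are the CCAAT box, the TATA box with the letters TATAAA, and the octamer, which was searched as ATTTGCAT.
Hist1h2bk promoter: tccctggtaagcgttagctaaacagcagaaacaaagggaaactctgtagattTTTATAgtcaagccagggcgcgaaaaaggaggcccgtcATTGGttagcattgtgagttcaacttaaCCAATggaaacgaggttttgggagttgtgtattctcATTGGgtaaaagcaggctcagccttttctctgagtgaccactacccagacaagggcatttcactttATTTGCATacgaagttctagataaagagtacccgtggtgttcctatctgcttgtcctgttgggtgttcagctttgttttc
The window holds the CCAAT box 1 time forward and 2 times in reverse, the TATA box 1 time in reverse and the octamer 1 time forward. Over the 63 members with a RefSeq promoter of this length, the CCAAT box on either strand was found in 85.7%, against 37.4% of all 32851 promoters, with every H1, H2A, H2B and H3 promoter holding it and 25.0% of the H4 promoters. The TATA box was found in 55.6% of member promoters against 13.6% of all. The octamer was found in 23.8% of member promoters against 1.70% of all, and only in H2A (38.9%) and H2B (47.1%) promoters. AAACACA, an element described in H1 promoters, was found in 14.3% of member promoters against 7.20% of all, and in 83.3% of the H1 promoters. No match overlaps another in this window. A match is a description of the sequence and shows no binding.

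In all, 13 pairs of an H2A and an H2B row start within 500 bases of each other on opposite strands. The H2B row paired with Hist3h2a is a processed pseudogene, Hist3h2bb-ps. For 7 pairs, that one included, both genes had a lower mean in Setd2D/D. For 2 both had a higher mean, for 1 the genes went opposite ways, and 3 had a gene at 0 in every library. A lower mean in Setd2D/D was found for 55.2% of all genes above 0 in a library, and 3 of the 7 pairs include a gene that was above 0 in 1 library only, so no more is read from this count. The partners did not share a level. Hist1h2ac, for example, the partner of Hist1h2bc, reached only 0.25 TPM in a single library, and Hist1h2ai, the partner of Hist1h2bl, was listed at 0 throughout. As the plot of the pairs shows, the Hist1h2ah and Hist1h2bk pair was the only one of the 13 in which, for both genes, each Setd2D/D library lay below each Setd2f/f library. Pairs were placed by position, and these examples were named after their values were seen.

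**Figure D4:**
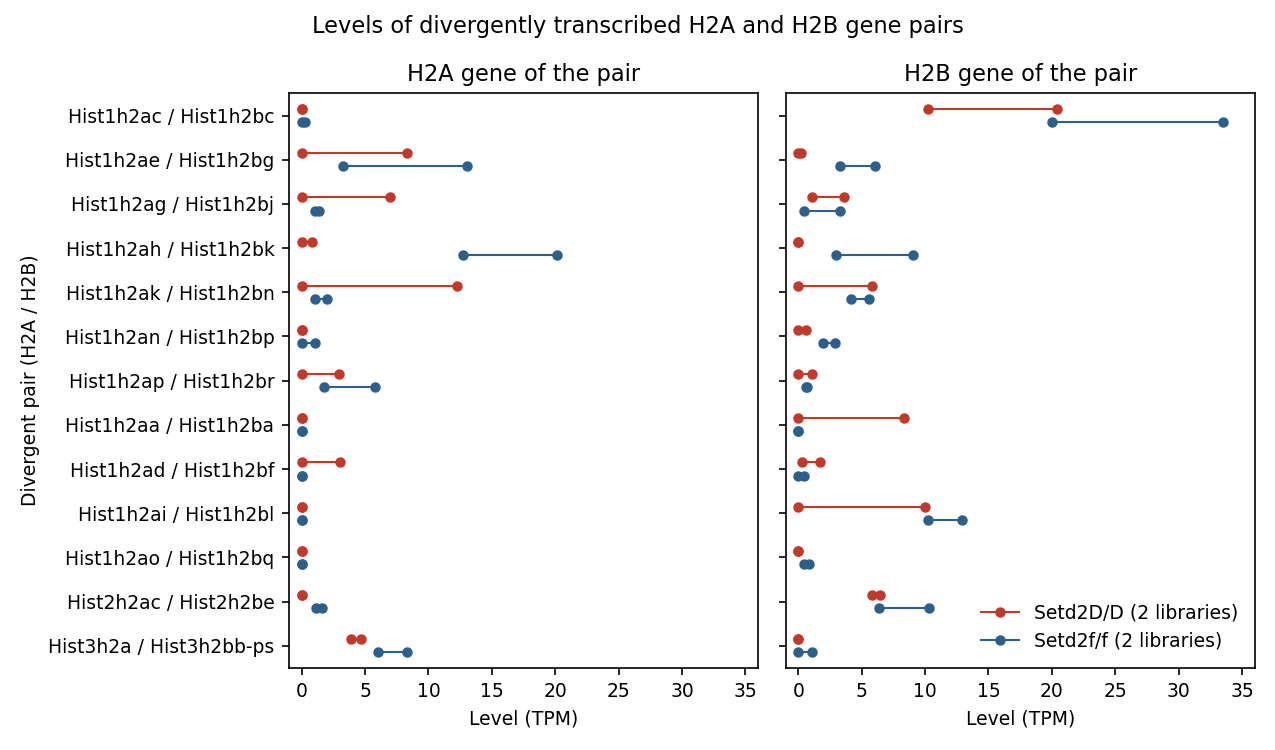
TPM (x axis) of the H2A gene (left panel) and the H2B gene (right panel) of each of the 13 divergent pairs (y axis), Setd2D/D above Setd2f/f; points are libraries and lines join the 2 libraries of a genotype. In the Hist1h2ah and Hist1h2bk pair the Setd2D/D points lie at 0 to 0.83 TPM and the Setd2f/f points at 3.01 to 20.2 TPM. The H2B row paired with Hist3h2a is the processed pseudogene Hist3h2bb-ps.

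By position, the Hist1 cluster had the lower sums in Setd2D/D libraries. Hist1 genes summed to 110.2 and 136 TPM in Setd2D/D libraries against 150.2 and 220.3 TPM in Setd2f/f libraries (ratio 0.665), Hist2 genes to 25.3 and 21.9 TPM in Setd2D/D libraries against 24.7 and 17.0 TPM in Setd2f/f libraries (ratio 1.13), and Hist3 genes to 15.3 and 7.34 TPM in Setd2D/D libraries against 11.1 and 8.33 TPM in Setd2f/f libraries (ratio 1.17). Both Setd2D/D sums were below both Setd2f/f sums only for Hist1, while Hist2 and Hist3 overlapped. The single Hist4 gene, at 0 and 0.83 TPM in Setd2D/D libraries against 0.58 and 1.16 TPM in Setd2f/f libraries, overlapped too (ratio 0.477). Of the 5 Hist2 genes tested, 3 had a limma log2 change below 0 and 2 above. Whether the clusters differ from each other was not tested. Within Hist1 on chromosome 13, members fell into blocks parted by more than 100 kb. The 18 members at chr13:21715763-21837530 summed to 44.8 and 42.2 TPM in Setd2D/D libraries against 49.7 and 56.4 TPM in Setd2f/f libraries (ratio 0.820). The 5 at chr13:22035164-22043676, which include Hist1h2ah, Hist1h2bk and Hist1h4i, summed to 18.4 and 25.4 TPM in Setd2D/D libraries against 30.7 and 44.9 TPM in Setd2f/f libraries (ratio 0.579). Of these 5, only Hist1h2ah and Hist1h2bk had a limma log2 change below 0. The other 3 were above 0, and the median of the 5 was 0.26. The 28 at chr13:23531050-23764406, which include Hist1h2bc, Hist1h4b and most H3 and H1 genes, summed to 38.7 and 66.0 TPM in Setd2D/D libraries against 64.9 and 112 TPM in Setd2f/f libraries (ratio 0.590), and here the genotypes overlapped. The other 5 Hist1 rows are 3 at other positions on the chromosome and 2 whose IDs are not in M21.

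Gene models were grouped by where they end. Models that end at the stem-loop summed to 28.3 and 35.5 TPM in Setd2D/D libraries against 31.2 and 55.0 TPM in Setd2f/f libraries (ratio 0.739), models that run past it to 46.4 and 61.7 TPM in Setd2D/D libraries against 56.5 and 81.2 TPM in Setd2f/f libraries (ratio 0.785), and models without it to 76.2 and 66.6 TPM in Setd2D/D libraries against 94.1 and 104 TPM in Setd2f/f libraries (ratio 0.721). Only the last group had both Setd2D/D sums below both Setd2f/f sums. Members were also grouped by how much of their sequence they share. Those with up to 10% of their windows shared, whose reads are least open to division among copies, summed to 27.4 and 24.2 TPM in Setd2D/D libraries against 33.7 and 30.1 TPM in Setd2f/f libraries (ratio 0.809), and those with over 50% shared to 67.8 and 66.1 TPM in Setd2D/D libraries against 89.6 and 104 TPM in Setd2f/f libraries (ratio 0.692). Both of these groups had lower sums in each Setd2D/D library. Members with 10% to 50% of their windows shared summed to 55.6 and 73.5 TPM in Setd2D/D libraries against 58.5 and 106.3 TPM in Setd2f/f libraries (ratio 0.783), and there the genotypes overlapped.

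Replication-independent histone genes had far higher measured TPM, in libraries whose RNA selection step is not given. How far capture of mRNAs without a poly(A) tail sets this difference was not tested. The 18 listed replication-independent genes summed to 5183 and 5330 TPM in Setd2D/D libraries against 5485 and 5817 TPM in Setd2f/f libraries (ratio 0.930). The histone cluster genes were 2.83% and 3.02% of both sets together in Setd2D/D libraries against 3.29% and 4.07% in Setd2f/f libraries. With limma, 0 of the 11 tested passed an adjusted p of 0.05. At an unadjusted p under 0.05, H2afv was lower in Setd2D/D while H2afj and Cenpa were higher. Of all genes tested, 6.99% were lower and 4.17% higher at that level. None was called in the authors' deposited table. H2afv, a variant close to H2A.Z, had 182 and 154 TPM in Setd2D/D libraries against 224 and 215 TPM in Setd2f/f libraries (adjusted p = 0.405). Cenpa, the H3 variant of centromeres, had 164 and 175 TPM in Setd2D/D libraries against 132 and 142 TPM in Setd2f/f libraries (adjusted p = 0.423), and H2afj had 92.9 and 83.9 TPM in Setd2D/D libraries against 47.1 and 71.3 TPM in Setd2f/f libraries (adjusted p = 0.444). These 3 genes did not overlap between genotypes, and they were not the only ones. Of the 11 tested, both Setd2D/D libraries lay below both Setd2f/f libraries for 4 and above them for 3. Over all genes above 0 in a library, these shares were 22% and 13.4%.

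The H3f3a and H3f3b genes, which encode the variant H3.3, overlapped between genotypes. H3f3a had 1419 and 1478 TPM in Setd2D/D libraries against 1530 and 1448 TPM in Setd2f/f libraries, with a log2 change of -0.04 that turned to 0.01 under median-of-ratios scaling. H3f3b had 669 and 652 TPM in Setd2D/D libraries against 660 and 752 TPM in Setd2f/f libraries. Of the other variants, H2afx (H2A.X, phosphorylated at DNA breaks) had 139 and 178 TPM in Setd2D/D libraries against 195 and 223 TPM in Setd2f/f libraries, H2afy (macroH2A) 1769 and 1781 TPM in Setd2D/D libraries against 1980 and 2275 TPM in Setd2f/f libraries, and H2afz (H2A.Z) 665 and 735 TPM in Setd2D/D libraries against 626 and 585 TPM in Setd2f/f libraries. Log2 changes were -0.41, -0.26 and 0.21 with limma adjusted p-values of 0.461, 0.463 and 0.504. H1f0, H1fx and H2afy2 had log2 changes of -0.09, -0.24 and -0.17, with standard errors of 0.15, 0.21 and 0.25.

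**Figure D5:**
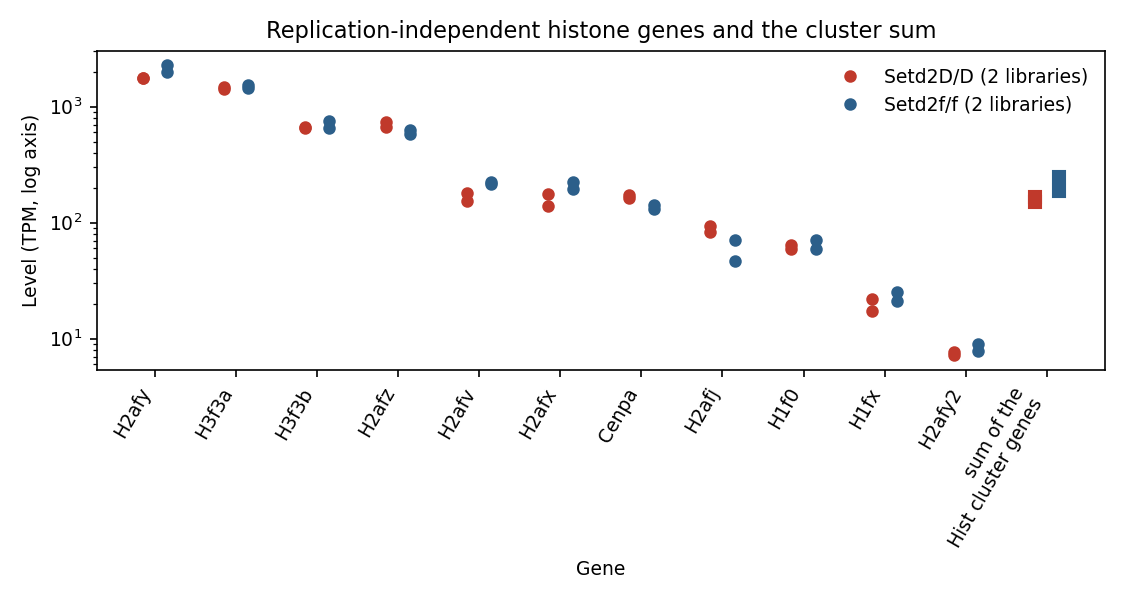
TPM (y axis, log scale) of the 11 replication-independent histone genes with a mean of at least 1 TPM (circles) and of the sum of all histone cluster genes (squares, far right), Setd2D/D to the left of Setd2f/f; points are libraries. The summed cluster genes (151 and 166 TPM in Setd2D/D against 187 and 247 TPM in Setd2f/f) lie near the level of the single genes H2afx and Cenpa.

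No gene of the list for histone gene transcription and mRNA 3′ processing passed the test. Of its 24 genes, all were tested, and 0 passed an adjusted p of 0.05 in either direction in limma, 0 had an unadjusted p under 0.05 and 0 were called in the authors' deposited table. Slbp, the stem-loop binding protein, had 170 and 133 TPM in Setd2D/D libraries against 176 and 164 TPM in Setd2f/f libraries. Npat had 15.9 and 19.8 TPM in Setd2D/D libraries against 19.4 and 18.3 TPM in Setd2f/f libraries, and Casp8ap2 (FLASH, a factor of histone pre-mRNA processing) had 18.8 and 19.8 TPM in Setd2D/D libraries against 23.1 and 21.2 TPM in Setd2f/f libraries. Of the U7 snRNP proteins, Lsm10 had 21.7 and 27.4 TPM in Setd2D/D libraries against 30.2 and 40.7 TPM in Setd2f/f libraries (log2 change -0.51, standard error 0.22, limma adjusted p = 0.483), and Lsm11 had 6.34 and 7.54 TPM in Setd2D/D libraries against 9.12 and 7.90 TPM in Setd2f/f libraries.

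Histone chaperone and cell cycle genes were read in 3 lists. Of 28 chaperone and assembly genes, 0 passed in limma, Hjurp was lower and Npm1 higher in Setd2D/D at an unadjusted p under 0.05, and the authors' deposited table called Npm1 higher (FDR 0.0278). Of 40 S phase genes, 0 passed in limma. Pcna and Rfc4 were lower at an unadjusted p under 0.05, and the authors' deposited table called E2f2 lower. Of all genes tested, 6.99% were lower and 4.17% higher at that unadjusted p. The authors' deposited table called 1.64% of its genes lower and 1.51% higher. Both Setd2D/D libraries lay below both Setd2f/f libraries for 13 of the S phase genes and above them for 6. Among all genes above 0 in a library, these shares were 22% and 13.4%. The S phase list summed to 4416 and 4443 TPM in Setd2D/D libraries against 4529 and 4980 TPM in Setd2f/f libraries (ratio 0.932). Pcna, the sliding clamp of DNA polymerase, had 534 and 479 TPM in Setd2D/D libraries against 644 and 586 TPM in Setd2f/f libraries (log2 change -0.28, adjusted p = 0.446). Of 20 mitosis genes, 0 passed in limma and 5 were higher at an unadjusted p under 0.05 (25%, against 4.17% of all genes tested). Both Setd2D/D libraries were above both Setd2f/f libraries for 9 of the 20 (45%), against 13.4% of all genes above 0 in a library. That share includes genes near 0, and no share over the genes tested is given here. Among the 9 was Cdk1, with 258 and 244 TPM in Setd2D/D libraries against 193 and 201 TPM in Setd2f/f libraries. The authors' deposited table called Kif20a higher (FDR 0.0102).

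RNAs that have no poly(A) tail were looked at as a separate list, because stem-loop mRNAs lack a tail too. The 26 listed genes summed to 459 and 365 TPM in Setd2D/D libraries against 276 and 354 TPM in Setd2f/f libraries (ratio 1.31). Of the 26, 11 were at 0 in every library. Those at 0 numbered 19 and 14 in Setd2D/D libraries against 14 and 12 in Setd2f/f libraries. Log2 changes were below 0 for 4 of the tested genes and above 0 for 5. With limma, 0 of the 9 tested passed an adjusted p of 0.05, 2 were higher at an unadjusted p under 0.05 (Snora73b and Rpph1) and 0 lower, and 0 were called in the authors' deposited table. Rn7sk, the RNA of the 7SK particle, held most of the sum, with 378 and 282 TPM in Setd2D/D libraries against 232 and 287 TPM in Setd2f/f libraries. Its values overlapped between genotypes. Snora73b, a small nucleolar RNA, had 53.0 and 27.4 TPM in Setd2D/D libraries against 3.80 and 6.24 TPM in Setd2f/f libraries (adjusted p = 0.204). Whether the share of RNA without a tail that was captured differed between libraries was not tested.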

How the data were processed

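The members, the gene lists and the tests were chosen with earlier results of these data known. The deposited files hold TPM for 46517 genes in 4 libraries, and the authors' comparison of the genotypes for 23955 genes. In the deposited comparison each gene has a p-value with its FDR, an F score, the log2 of its mean CPM, and its change both as a linear ratio and as a log2 value. Per the submitters' processing notes, cutadapt, RSEM, edgeR and the mm10 build were used, without versions or roles. TPM scales each library to the same total and divides by model length, so a short model weighs more per read. In 5 rows of the first table and 2 of the second a comma in a gene name had shifted the fields, which were joined again. Groups came from the genotype in the labels.

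Genes with 1 TPM or more in at least 2 libraries (14755) were tested on log2(TPM + 1) with limma 3.58.1 in R 4.3.3 (trended variance, 2-sided, Benjamini-Hochberg at 0.05), and fold changes on that scale understate those of low genes. The fit was tested on simulated data. No set test was made. Most members are low, with a mean CPM under 1 for 44 of 62 in the authors' deposited table. The worth of 1 read was taken from genes with 1 GENCODE M21 model of 900 to 2500 bases, less 100 bases. Members were matched to M21 by ID (69 of 71).

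Genes named in the text are, in each class, the 4 members with the highest mean; the 6 members with the smallest limma p; members past 0.05 in either table; Hist2, Hist3 and Hist4 members with a mean of at least 1 TPM; replication-independent histones with a mean of at least 1 TPM; and up to 4 genes of the other lists by smallest p, with 5 fixed processing factors. Other choices were made after the values were seen. Alternatives tried were a filter at 5 TPM or none, pseudocounts of 0.1 and 0.5, unweighted TMM and median-of-ratios scaling, no or robust variance trend, the replicate number as a block and leaving out each library, with 2 added after the data were seen.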

Additional observations from a re-analysis of the deposited data

How the results depend on the processing

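Without single libraries, the count of members lower in Setd2D/D past the adjusted threshold ranged from 0 to 2, with Hist1h2ah and Hist1h2bl past it without Setd2D/D replicate 2, where the lone Setd2D/D library is assumed to vary like the others. Unadjusted, 0 to 11 members were lower and 0 to 4 higher without single libraries (0 and 0 without Setd2f/f replicate 2), 1 was lower and 1 higher at the 5 TPM filter, 0 were higher without a filter and 1 was higher without the variance trend. The log2 ratio of the summed level ranged from -0.64 to -0.24 for all members, -0.19 to 0.33 for H1, -0.73 to -0.13 for H2A and -1.06 to -0.65 for H3 when a library was left out. Without its highest member the ratio was 0.36 for H1 and 0.15 for H2A. Weighting TPM by model length, chosen after seeing the data, gave -0.24 for H1 and -0.47 for H3. For H4 the range was -0.54 to 0.02, with -0.62 without Hist1h4i. The median log2 change of the members tested ranged from -0.42 to -0.23 when a library was left out. The cause of these shifts was not tested. Replicate numbers did not pair the libraries (same-numbered deviations correlated at r = 0.041 over 14755 genes). With the number as a replicate block, 0 members passed the adjusted threshold. The sign turned when a library was left out, with log2 changes of -0.50 to 1.43 for Hist1h1e, -2.95 to 0.27 for Hist1h2ae, -0.21 to 1.38 for Hist1h3d, -1.20 to 0.27 for Hist1h3h, -2.63 to 0.17 for Hist1h4d, -0.21 to 0.74 for Hist1h4i, -0.51 to 0.78 for Hist1h4k, -2.14 to 0.41 for Hist2h3b, -0.22 to 0.0325 for H1f0, -0.0793 to 0.00091 for H3f3a, -0.19 to 0.00037 for H3f3b, -0.35 to 0.00743 for Slbp, -0.23 to 0.0692 for Npat, -1.94 to 0.34 for Gp1ba and -0.12 to 0.13 for Pecam1. H3f3a was also at 0.00972 under median-of-ratios scaling. Members above 0 had median equivalents of 22.8 to 40.6 reads per library.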
